A study of Sus scrofa with 18 samples.

Results

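This report compares the retinas of piglets with high and with low levels of ALDH1A1, a retinaldehyde dehydrogenase that makes retinoic acid. The animals were male Landrace x Large White crossbred piglets that entered the study at 3 days of age, were fed milk replacer at a basal level or with added sialyllactose, and gave their retinas on postnatal day 38. Total RNA of 18 piglets, 9 per diet, was hybridised to Affymetrix pig arrays, 1 array per piglet, and the study's own question was what sialyllactose does to the developing retina. The retinas were chosen by their measured ALDH1A1 level: the 18 arrays were ranked by the ALDH1A1 probe set with the higher mean. The 6 highest (3 control, 3 sialyllactose) and the 6 lowest (4 control, 2 sialyllactose) were compared, 12 arrays of 18, and the middle 6 (2 control, 4 sialyllactose) were left out. These groups were cut from a measured level and are not treatment groups, so ALDH1A1 itself is described without a test between them. The labels name the tissue only as retina. The area of the eye cup that was taken, and any removal of the pigment epithelium, were not given in the sources used here.

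Retinoic acid is a small molecule made from retinaldehyde that enters the nucleus and turns genes on through the RAR and RXR receptors. In the developing vertebrate eye ALDH1A1 lies in the dorsal retina and ALDH1A3 in the ventral retina, and CYP26A1, which breaks retinoic acid down, lies in a band between them. Dorsal identity is set up by BMP signals and TBX transcription factors, and ephrin-B ligands on dorsal cells and EphB receptors on ventral cells later guide the axons of ganglion cells.

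The brighter ALDH1A1 probe set spanned 6.55 to 6.97 on the log2 scale in the high arrays with a median of 6.74, 5.31 to 6.27 in the middle arrays with a median of 6.04, and 2.72 to 5.01 in the low arrays with a median of 4.71. The step between neighbouring groups was small: the lowest high array stood at 6.55 and the highest middle array at 6.27, the lowest middle array at 5.31 and the highest low array at 5.01. Most of the spread came from the low end, where sialyllactose replicate 1 was at 2.72 and control replicate 8 at 3.97. The mean was 6.75 ± 0.18 in the high group and 4.35 ± 0.88 in the low group (SD, n = 6 each), a difference of 2.40 or 5.28-fold. Among the 16799 probe sets tested, the SD of this probe set over the 18 arrays ranked 9.

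The dimmer ALDH1A1 probe set spanned 4.19 to 4.89 in the high arrays with a median of 4.49, 3.36 to 4.04 in the middle arrays with a median of 3.94, and 1.94 to 3.27 in the low arrays with a median of 2.60. Ranking by it chose the same 6 high and the same 6 low arrays. Between the diets, which the ranking did not use, the brighter probe set had a mean of 5.59 ± 1.05 in the control arrays and 5.79 ± 1.31 in the sialyllactose arrays (SD, n = 9 each), a difference of 0.20 with a 95% interval from -0.82 to 1.22 (limma adjusted p = 0.969).

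**Figure D1:**
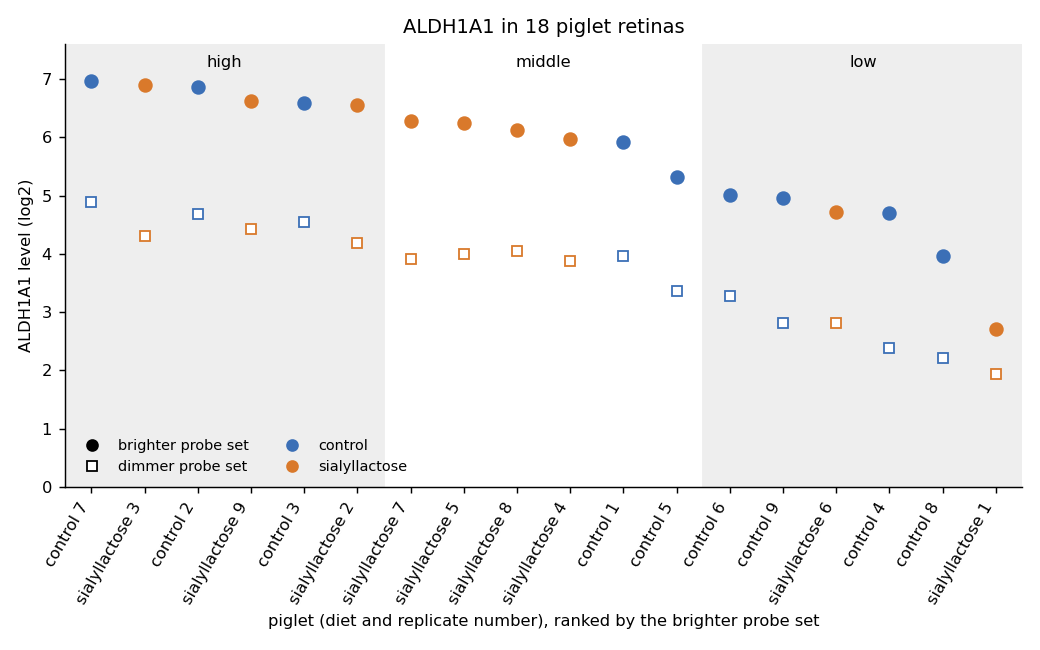
ALDH1A1 level on the log2 scale (vertical axis) in each of the 18 retinas (horizontal axis, ranked); filled circles are the brighter and open squares the dimmer probe set, and colour gives the diet. The shaded blocks are the 6 high and the 6 low arrays, and sialyllactose replicate 1 stands lowest at 2.72.

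Few other probe sets differed between these groups. The fit with diet as a covariate called 14 of 16797 probe sets other than ALDH1A1, 0.0833%, at an adjusted p under 0.05 (limma, Benjamini-Hochberg over all tested probe sets). Differences are high minus low on the log2 scale, adjusted for diet by this fit, so a small one can differ in sign from the plain difference of group means. Of these, 12 were higher in the ALDH1A1-high retinas (0.0714% of those tested) and 2 were lower (0.0119%). They belonged to 7 named genes, 6 higher (EFNB2, BAMBI, NR2F2, GLUL, GOT2 and SQOR) and 1 lower (CNDP1), and to 5 probe sets without a single gene name, 4 higher and 1 lower. In whole retina RNA, fewer cells of a type and less RNA per cell cannot be told apart, and the number of arrays limits the precision.

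The background of smaller differences was even. At an unadjusted p under 0.05, 620 probe sets were higher (3.69%) and 620 lower (3.69%), and the median difference over all tested probe sets was -0.003. Without any overlap between the high and the low arrays, 43 probe sets were higher (0.256%) and 38 lower (0.226%), and 12 of the 14 called ones were among these.

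**Figure D2:**
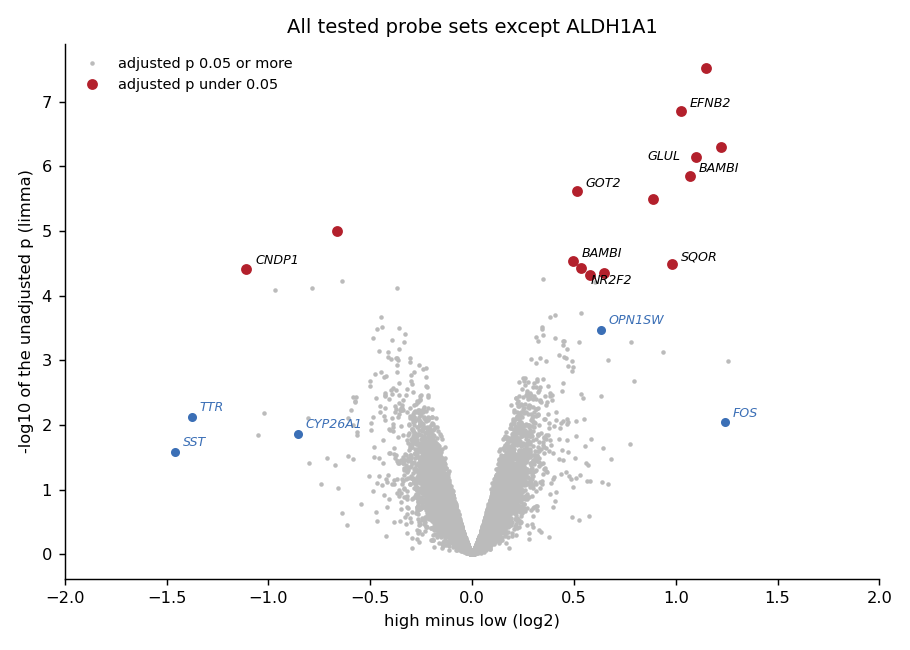
Difference between ALDH1A1-high and ALDH1A1-low retinas on the log2 scale (horizontal axis) against -log10 of the unadjusted limma p (vertical axis), 1 point per tested probe set, without ALDH1A1. The 14 red points passed the adjusted threshold, 12 of them to the right of 0, and those with a gene name are labelled; blue points are genes described in the text that did not pass.

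Genes of the dorsal retina made up 3 of the 6 named genes that were higher. Of the 11 genes on a list of dorsal retina genes, 5 had a tested probe set; 3 were called higher (EFNB2, BAMBI and NR2F2) against 0.0714% of all tested probe sets, TBX2 and BMP4 were not called, and the median difference of the 5 was 0.54 against 0.007 over the 5709 genes measured. The list was chosen with earlier results of these data known, so its count is not independent evidence of a direction.

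EFNB2 encodes ephrin-B2, a membrane ligand of EphB receptors. Its probe set spanned 2.99 to 3.61 in the high arrays with a median of 3.40, and 1.98 to 2.52 in the low arrays with a median of 2.40. No low array reached a high one. The middle arrays ran from 2.40 to 3.24 and overlapped both the low and the high range. The difference was 1.02 (95% interval 0.80 to 1.25, 2.03-fold, limma adjusted p = 0.000768). It was 1.10 among the control arrays and 0.92 among the sialyllactose arrays.

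BAMBI, a decoy receptor that dampens BMP and activin signals, had 2 probe sets, both called higher. The brighter one spanned 4.10 to 4.75 in the high arrays with a median of 4.47, and 3.09 to 3.77 in the low arrays with a median of 3.31. These groups did not overlap, and the difference was 1.07 (95% interval 0.79 to 1.36, 2.10-fold, limma adjusted p = 0.00333). The dimmer one differed by 0.50 with a limma adjusted p of 0.0439, and 5 of its 6 high arrays lay above every low array.

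NR2F2, the orphan nuclear receptor COUP-TFII, is a transcription factor found in the dorsal part of the mouse optic cup. Its brightest probe set spanned 4.92 to 5.25 in the high arrays with a median of 5.13, and 4.41 to 4.82 in the low arrays with a median of 4.51. The groups did not overlap. It was higher by 0.54 (95% interval 0.34 to 0.73, 1.45-fold, limma adjusted p = 0.0466). The other two probe sets of NR2F2 differed by 0.65 (limma adjusted p = 0.0495) and 0.47 (limma adjusted p = 0.508). NR2F2 was near the threshold: without 1 array at a time its brightest probe set passed in 2 of 12 fits, without control replicate 2 and without control replicate 6, with a limma adjusted p up to 0.153.

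TBX2, a transcription factor of the dorsal optic cup, differed by 0.09 in its brightest probe set (95% interval -0.08 to 0.27). Its others differed by -0.01 and 0.15. BMP4, the secreted signal that sets dorsal identity in the early eye, was dim. It spanned 1.86 to 2.31 in the high arrays with a median of 1.95, and 2.13 to 2.80 in the low arrays with a median of 2.33. Its groups overlapped and its sign was opposite to that of the 3 called genes, with a difference of -0.39 (95% interval -0.63 to -0.15, limma adjusted p = 0.440). BMP7, another secreted BMP, had a difference of -0.50 (95% interval -0.79 to -0.21, limma adjusted p = 0.412).

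For the ventral retina, 2 of 10 listed genes had a tested probe set. NR2F1, the nuclear receptor COUP-TFI and a relative of NR2F2 that is stronger ventrally in the mouse optic cup, spanned 4.84 to 5.39 in the high arrays with a median of 5.08, and 3.93 to 4.86 in the low arrays with a median of 4.46. The difference was 0.67 (95% interval 0.32 to 1.01) and was not called (limma adjusted p = 0.265). BMPR1B, a BMP receptor of ventral retina, differed by -0.14 in its brighter probe set (95% interval -0.53 to 0.26) and by 0.06 in the other. None of the 7 listed genes of the nasal and temporal retina had a tested probe set. The tested genes of the dorsal list thus differed in sign, a gene of the ventral list had the sign of the 3 called dorsal genes, and the labels give no position, so the retinas are named here by their ALDH1A1 level alone.

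**Figure D3:**
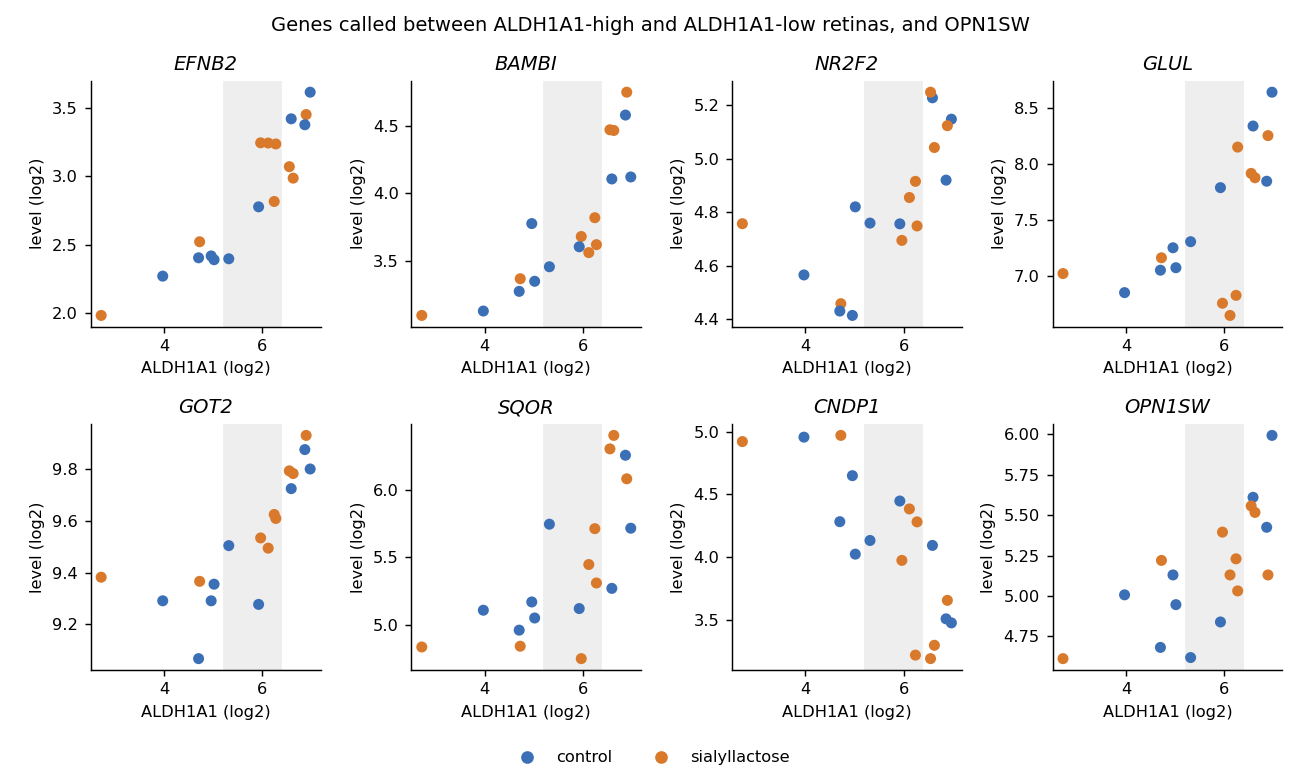
Level of the 7 called genes and of OPN1SW on the log2 scale (vertical axes) against the ALDH1A1 level (horizontal axes), 1 point per retina, coloured by diet; for genes with several probe sets 1 called probe set is drawn. The shaded band holds the 6 middle arrays; EFNB2 spans 2.99 to 3.61 to its right and 1.98 to 2.52 to its left, and CNDP1 runs the other way.

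Enzymes formed the rest of the called genes. GLUL, the glutamine synthetase with which Mueller glia clear glutamate, was called by 1 of its 3 probe sets. That probe set spanned 7.85 to 8.65 in the high arrays with a median of 8.09, and 6.85 to 7.26 in the low arrays with a median of 7.07. The groups did not overlap, and the difference was 1.10 (95% interval 0.82 to 1.37, 2.14-fold, limma adjusted p = 0.00210). The middle arrays spread from 6.65 to 8.16, from below the lowest low array into the high range.

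The probe sets of GLUL disagreed in size. The brightest of them spanned 10.61 to 10.97 in the high arrays and 10.18 to 10.62 in the low arrays and differed by 0.45 (95% interval 0.24 to 0.67, limma adjusted p = 0.199). The third differed by 0.07 (limma adjusted p = 0.887). The mean of the 3 probe sets differed by 0.54 and passed (limma adjusted p = 0.00138). 

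GOT2, the mitochondrial aspartate aminotransferase, which makes and uses glutamate, was measured by 1 probe set. It spanned 9.73 to 9.93 in the high arrays with a median of 9.80, and 9.07 to 9.38 in the low arrays with a median of 9.32. The groups did not overlap, and the difference was 0.51 (95% interval 0.37 to 0.66, 1.43-fold, limma adjusted p = 0.00501). It was 0.55 among the control arrays and 0.46 among the sialyllactose arrays.

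SQOR, the sulfide:quinone oxidoreductase of the inner mitochondrial membrane, which oxidises hydrogen sulfide, spanned 5.27 to 6.40 in the high arrays with a median of 6.17, and 4.84 to 5.17 in the low arrays with a median of 5.01. The high arrays were the more variable and none fell into the low range. The difference was 0.98 (95% interval 0.63 to 1.33, 1.97-fold, limma adjusted p = 0.0455), with 0.67 among the control arrays and 1.42 among the sialyllactose arrays. SQOR passed in 1 of 12 fits without 1 array, that without control replicate 3, with a limma adjusted p up to 0.186.

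CNDP1, a secreted dipeptidase that cleaves carnosine, was the only named gene called lower. It spanned 3.19 to 4.09 in the high arrays with a median of 3.49, and 4.02 to 4.97 in the low arrays with a median of 4.78. Of the 6 high arrays, 5 lay below every low array. The difference was -1.11 (95% interval -1.51 to -0.71, 2.15-fold lower, limma adjusted p = 0.0466). It passed in 2 of 12 fits without 1 array, those without control replicate 3 and without control replicate 6, with a limma adjusted p up to 0.186.

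The probe set with the smallest p had no gene name. It spanned 2.17 to 2.52 in the high arrays with a median of 2.28, and 0.91 to 1.49 in the low arrays with a median of 1.10, a difference of 1.15 (95% interval 0.92 to 1.37, limma adjusted p = 0.000255). Another unnamed one, also higher, spanned 4.60 to 5.40 against 3.55 to 4.14 and differed by 1.22 (limma adjusted p = 0.00208). The unnamed probe set that was lower spanned 3.20 to 3.73 in the high arrays and 4.01 to 4.37 in the low arrays and differed by -0.66 (limma adjusted p = 0.0167). In all 3 the groups did not overlap.

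The called differences held within both diets. All 14 had the same sign in the control and in the sialyllactose arrays, against 54.5% of all tested probe sets, but these are the arrays on which they were called. The interaction of ALDH1A1 group with diet called 0 of 16797 probe sets (0%, limma, lowest adjusted p = 0.870). Of the 16797, 678 stood at an unadjusted p under 0.05, a share below the 0.05 that chance alone gives. The low group held only 2 sialyllactose arrays, which limits this test. In the middle 6 arrays, which the comparison did not use and which spanned 0.96 in ALDH1A1, 13 of the 14 called probe sets had a slope on ALDH1A1 of the sign of the call, the exception being SQOR, against 54.7% of all tested probe sets. The 14 include both BAMBI probe sets and 2 of NR2F2, which do not count as separate genes. The slopes in the middle arrays differed in size, which a count of signs leaves out. EFNB2 had a slope of 0.75, but the called GLUL probe set had only 0.02. For the dimmer BAMBI probe set it was 0.04 and for the brightest NR2F2 probe set 0.09. These slopes were not tested.

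Leaving out any 1 array left EFNB2, the brighter BAMBI probe set, the called GLUL probe set, GOT2 and both unnamed higher probe sets described above past the threshold in 12 of 12 fits (limma). The unnamed lower probe set passed in 8 of 12, not without control replicate 6 or 8 or without sialyllactose replicate 1 or 9. The dimmer BAMBI probe set passed in 1 of 12, that without control replicate 3. The second called probe set of NR2F2 passed in 2 of 12, those without control replicate 2 and without control replicate 9. Other ways of drawing the groups ended more of these calls, with the sign kept. With the 4 highest against the 4 lowest arrays, EFNB2 had a limma adjusted p of 0.0712, the GLUL probe set 0.108 and GOT2 0.111. With all 18 arrays split 9 and 9, the GLUL probe set had a limma adjusted p of 0.257 and the brighter BAMBI probe set 0.0960. With the slope on the ALDH1A1 level over 18 arrays, GLUL had 0.265 and GOT2 0.0908. SQOR, CNDP1 and the brightest NR2F2 probe set were also lost with the arrays split 9 and 9 (limma adjusted p = 0.114, 0.176 and 0.0960).

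Below the threshold, a few named genes came next on either side. DBI, the acyl-CoA binding protein abundant in Mueller glia, spanned 8.73 to 9.21 in the high arrays and 8.10 to 8.73 in the low arrays without overlap, with a difference of 0.60 (95% interval 0.37 to 0.83, limma adjusted p = 0.0540). VCAM1, an adhesion molecule, spanned 4.43 to 4.77 against 4.72 to 5.10, with a difference of -0.37 (limma adjusted p = 0.0612). Without control replicate 7 DBI passed (limma adjusted p = 0.00468), and without control replicate 2 VCAM1 passed (limma adjusted p = 0.0457).

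Among the other named genes with the smallest p and positive differences, none of which was called, were APOA1, a lipid carrier protein (0.54), LGALS1, galectin-1 (0.40), AQP5, a water channel (0.38), and RILPL2 (0.34). On the negative side stood LRIG1, a brake on growth factor receptors (-0.45), LAMB1, a laminin chain of basement membranes (-0.43), PLPP2, a lipid phosphatase (-0.41), PALMD (-0.39), OPRM1, the mu opioid receptor (-0.36), ACADL, an enzyme of fatty acid oxidation (-0.22), and PFDN4, a prefoldin subunit (-0.22). Their limma adjusted p-values ran from 0.135 for APOA1 to 0.441 for PLPP2.

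Of 33 genes of retinoic acid synthesis, breakdown, binding and response, 12 had a tested probe set and none was called. Of the 12, 6 had a difference above 0 and 6 below 0, against 53.0% above 0 over the 5709 genes measured. At an unadjusted p under 0.05, 1 of the 12 was lower, against 3.69% of all tested probe sets. That gene was CYP26A1, the cytochrome P450 that clears retinoic acid. It spanned 1.77 to 2.79 in the high arrays with a median of 2.54, 2.05 to 3.49 in the middle arrays, and 1.90 to 3.95 in the low arrays with a median of 3.56. The high and low ranges overlapped, with 1 high array below every low array, and the difference was -0.85 (95% interval -1.50 to -0.21, limma adjusted p = 0.559). It was -0.52 among the control and -1.33 among the sialyllactose arrays.

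The receptors and carriers of the pathway had small differences, none called. RARB, a receptor that retinoic acid induces in many tissues, differed by 0.15 (95% interval -0.03 to 0.32). Its probe set was among the dimmest, at the 0.33 percentile of mean level among those tested. RXRA, RXRB and RXRG, the partner receptors, differed by 0.05, 0.11 and 0.12. RARRES1 and RARRES2, named for their response to retinoids, differed by -0.10 and -0.12. The corepressor NCOR1 differed by -0.08 in its brightest probe set and by -0.16 and 0.21 in its others. The retinol dehydrogenases RDH11 and RDH14 differed by -0.09 and 0.01, the serum retinol carrier RBP4 by 0.06 and the carotenoid cleaving enzyme BCO2 by -0.04.

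The other enzymes that handle aldehydes were set beside ALDH1A1. Of 12 tested, 8 had a difference above 0 and 4 below 0, against 53.0% above 0 over the 5709 genes measured. None was called, and the median difference was 0.12. AKR1A1, an aldehyde reductase, spanned 4.92 to 5.25 against 4.70 to 4.90 without overlap and differed by 0.22 (limma adjusted p = 0.497). ALDH4A1, of proline breakdown, differed by 0.21 in its brighter probe set and by 0.01 in the other. For ALDH3A2, of fatty aldehyde oxidation, these differences were 0.25 and 0.05. ALDH1L1, of folate metabolism, differed by 0.13.

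Cone genes had differences above 0, without a call. Of 16 listed, 5 were tested and 5 had a difference above 0, against 53.0% of the 5709 genes measured. Of these 5, 3 were higher at an unadjusted p under 0.05, against 3.69% of all tested probe sets. The median difference of the 5 was 0.33. OPN1SW, the short-wavelength cone opsin, which in mouse is more abundant ventrally, spanned 5.13 to 5.99 in the high arrays with a median of 5.54, 4.62 to 5.40 in the middle arrays, and 4.61 to 5.22 in the low arrays with a median of 4.98. Of the 6 high arrays 5 lay above every low array, and the difference was 0.63 (95% interval 0.35 to 0.92, limma adjusted p = 0.176).

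GRK7, the cone opsin kinase, spanned 3.34 to 4.19 in the high arrays and 3.11 to 3.59 in the low arrays and differed by 0.38 (95% interval 0.11 to 0.65, limma adjusted p = 0.514). ARR3, cone arrestin, spanned 9.11 to 10.18 against 9.32 to 9.61 and differed by 0.33 (95% interval 0.01 to 0.65, limma adjusted p = 0.654). In ARR3, 5 high arrays stood above and 1 below all low arrays. RXRG and PDE6C, the cone phosphodiesterase, differed by 0.12 and 0.03. Rod genes were represented by SAG, rod arrestin, and CNGA1, a subunit of the rod channel, which differed by -0.03 and -0.03 after the adjustment for diet. For CNGA1 the group means were 3.30 in the high and 3.27 in the low arrays, so its sign rests on that adjustment.

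Mueller glia were covered by 15 of 21 listed genes, with a median difference of 0.07. Of the 15, 10 had a difference above 0 and 5 below 0, against 53.0% above 0 over the 5709 genes measured. Counted by the brightest probe set of each gene none was called. At an unadjusted p under 0.05, 4 were higher, against 3.69% of all tested probe sets. They were DBI (0.60), GLUL (0.45), SLC1A3, the glial glutamate transporter (0.29), and RLBP1, the retinaldehyde carrier of glia and pigment epithelium (0.23). VIM, a filament protein of these cells, differed by -0.01 and SOX9 by -0.24. The summed linear level of the 15 genes ran from 6757 to 7427 in the high and from 5581 to 6846 in the low arrays. This sum weighs bright genes most, and GLUL was the brightest of the 15 by mean level.

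Ganglion cell genes had differences below 0, also without a call. Of 16 listed, 7 were tested and 7 had a difference below 0 by their brightest probe set, with THY1 at -0.002. The median difference was -0.17. THY1 and NRN1 also had a dimmer probe set of the other sign. Over the 5709 genes measured, 53.0% had a difference above 0. STMN2, a microtubule regulator of growing axons, spanned 8.60 to 9.07 against 8.91 to 9.29 and differed by -0.26 (limma adjusted p = 0.518). RBPMS, an RNA binding protein that marks ganglion cells, differed by -0.29 in its brightest probe set (limma adjusted p = 0.497), but its other two differed by 0.08 and 0.03. NEFL and GAP43 differed by -0.17 and -0.17.

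**Figure D4:**
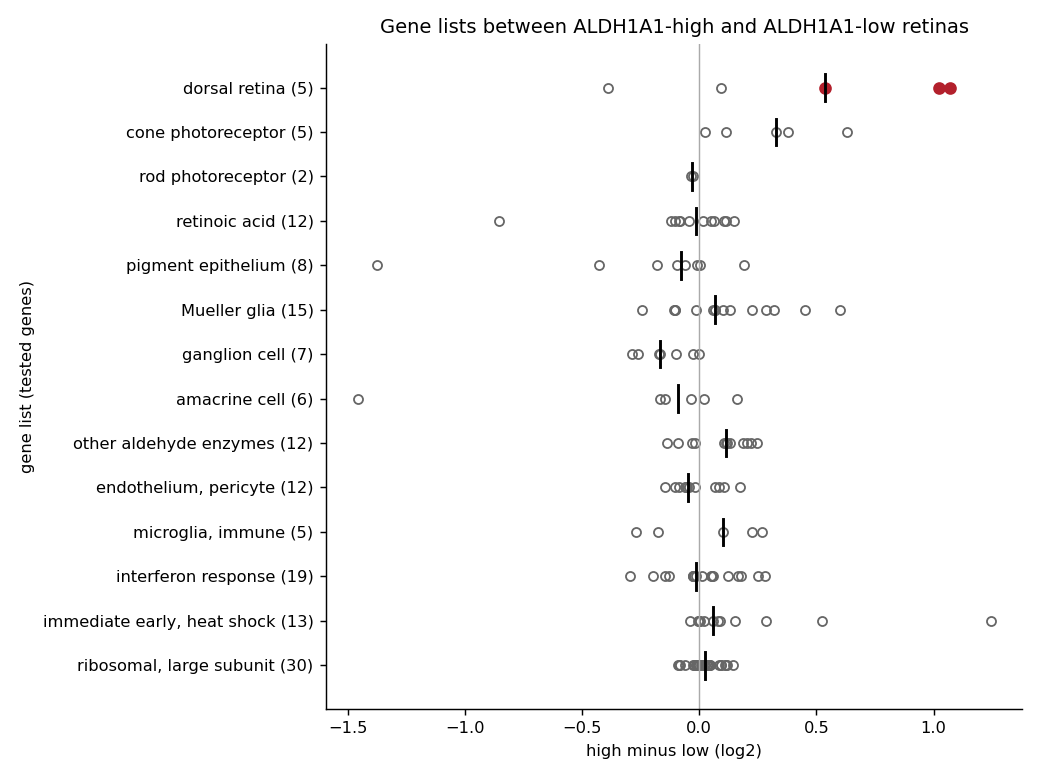
Difference between ALDH1A1-high and ALDH1A1-low retinas on the log2 scale (horizontal axis) for the tested genes of 14 lists (vertical axis, number tested in brackets), 1 circle per gene by its brightest probe set; filled red circles were called and black ticks are list medians. Only the dorsal list holds called genes; its median is 0.54 and that of the retinoic acid list -0.01.

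Genes of the pigment epithelium, the layer behind the photoreceptors, were measured as the markers of a neighbouring tissue. Of 17 listed, 8 were tested, none called, with a median difference of -0.08. Of the 8, 2 had a difference above 0 and 6 below 0, against 53.0% above 0 over the 5709 genes measured. TTR, transthyretin, made in that layer, spanned 4.54 to 7.67 in the high arrays with a median of 6.09, and 6.82 to 8.32 in the low arrays with a median of 7.31. Of the 6 high arrays 5 lay below every low array, and the difference was -1.37 (95% interval -2.31 to -0.43, limma adjusted p = 0.497). KRT18, a keratin of epithelia, differed by -0.43 (limma adjusted p = 0.440).

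The pigment genes differed less than TTR. TYR, OCA2 and SLC45A2, of melanin synthesis, differed by -0.01, 0.004 and -0.06. MITF, their regulator, differed by -0.18 in its brighter probe set and by 0.15 in the other. BEST1, a chloride channel of this layer, differed by 0.19. SERPINF1, a factor secreted by this layer, differed by -0.09. The summed linear level of the 8 genes ran from 90.6 to 293 in the high and from 178 to 409 in the low arrays. Such a sum weighs bright genes most, and TTR was the brightest of the 8 by mean level. It therefore does not describe the pigment genes. With the TTR level of each array as a further covariate, 2 probe sets were called in place of 14 (limma), EFNB2 with a difference of 1.02 and adjusted p of 0.0459 and the unnamed probe set of smallest p with 1.22 and 0.0148. Of the calls lost there, the GLUL probe set differed by 1.17 (limma adjusted p = 0.0586), the brighter BAMBI probe set by 1.002 (0.119), GOT2 by 0.50 (0.119), SQOR by 1.08 (0.217), the brightest NR2F2 probe set by 0.52 (0.342) and CNDP1 by -1.34 (0.119).

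SST and FOS, from 2 other lists, varied widely between arrays. SST, the somatostatin of a few amacrine cells, spanned 2.55 to 3.65 in the high and 2.83 to 6.92 in the low arrays and differed by -1.46 (95% interval -2.71 to -0.21, limma adjusted p = 0.617). FOS, an immediate early gene, spanned 3.05 to 5.74 against 2.48 to 4.23 and differed by 1.24 (95% interval 0.36 to 2.13, limma adjusted p = 0.514). Both ranges overlapped. The part of TTR, SST or FOS in the called differences was not tested beyond the fit with TTR.

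**Figure D5:**
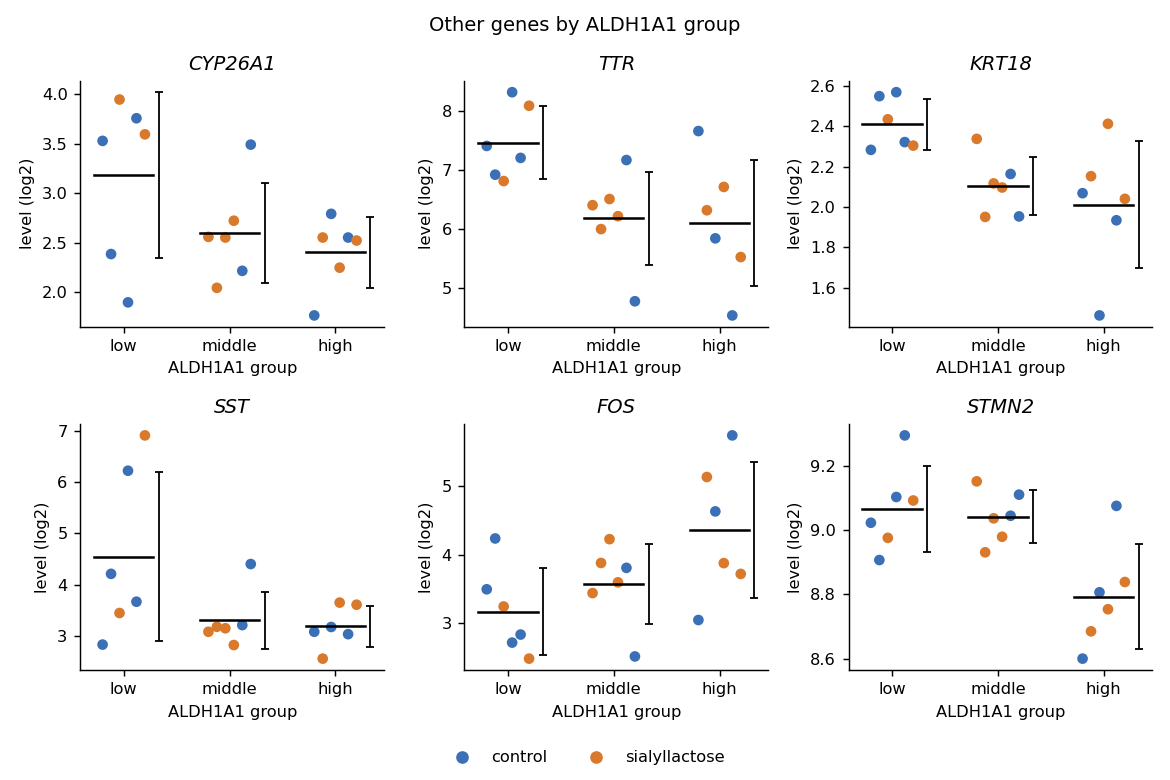
Levels on the log2 scale (vertical axes) of 6 genes that were not called, by ALDH1A1 group (horizontal axes), 1 point per retina coloured by diet; the line is the mean of 6 arrays and the bar beside it 1 SD. TTR spans 4.54 to 7.67 in the high and 6.82 to 8.32 in the low arrays, and CYP26A1 and SST spread most in the low arrays.

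Among the remaining lists no gene was called. Their counts of sign stand against 53.0% above 0 over the 5709 genes measured. Interferon response genes had 9 differences above 0 and 10 below 0 with a median difference of -0.01, and the gene with the smallest p was STAT2 (0.25). Immediate early and heat shock genes had 9 above 0 and 4 below 0 (median 0.06), endothelial and pericyte genes 4 and 8 (median -0.05), microglial and other immune genes 3 and 2 (median 0.10), and amacrine genes 2 and 4 (median -0.09). Genes of the large ribosomal subunit had 19 above 0 and 11 below 0 with a median of 0.02. RPL3 and RPLP0, the members with the smallest p, differed by 0.14 and 0.12.

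No measure of array quality passed a test between the groups. The median and quartiles of each array, its mean correlation with the other arrays, and the 3 prime minus 5 prime difference of the ACTB and GAPDH control probe sets, a sign of RNA breakdown, gave exact permutation p-values from 0.162 to 0.868 (924 splits of the 12 arrays, two-sided, 6 measures, adjusted p from 0.537 to 0.868). The ACTB difference was 3.21 ± 0.34 in the high and 3.24 ± 0.33 in the low arrays, and that of GAPDH 1.47 ± 0.16 and 1.37 ± 0.12 (SD, n = 6 each). Arrays correlated at 0.981 to 0.992 with each other and no pair held identical values.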

How the data were processed

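Each sample was 1 array of total retina RNA from 1 piglet. The deposited table gave log2 values, 1 for each probe set on an array. The authors made it with Affymetrix Expression Console and RMA, per the submitters' processing notes, with settings not given in the sources used here. RMA in general places arrays on 1 distribution and gives no detection call, so a shift shared by most genes cannot be seen. Of 24123 probe sets, 124 array controls and then the 30% with the lowest mean over 18 arrays (7200) were left out, which left 16799. The platform annotation gave 10099 probe sets 1 symbol, 198 several and 13826 none, and only the first kind was named. A gene was represented in lists by its brightest tested probe set.

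The fit was limma 3.58.1 in R 4.3.3 (lmFit and eBayes, group and diet, 12 arrays, two-sided, Benjamini-Hochberg). On simulated data for high minus low over 16799 probe sets with 200 changed, it recovered 13.4% of 1.19-fold, 76.1% of 1.41-fold and 97% of 2-fold changes with 8 false calls. The simulated noise was drawn independently for each probe set. With that many changed, the adjusted threshold is easier to pass than with the few calls made here. These rates may therefore not hold for the real comparison. ALDH1A1's 2 probe sets stayed in the fit and were not counted. The members, the 27 gene lists and the ALDH1A1 rule were chosen with earlier results of these data known. Named genes were those with a called probe set and the next by p up to 12 per direction. All tested members of the retinoic acid, dorsal, ventral, nasal and temporal, cone, visual cycle and pigment epithelium lists were also named. In the other lists up to 4 with an unadjusted p under 0.05 were named. A few further members (VIM, SOX9, NEFL, GAP43, THY1, NRN1, SAG and CNGA1) were chosen after their values were seen. Alternatives covered the filter on dim probe sets, scaling, covariates, the size of the groups, each array left out, the variance model and a rank-sum test. Promoter and protein sequences were not used here.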

Additional observations from a re-analysis of the deposited data

Results flagged for a closer look

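In 146 groups of arrays of the named probe sets, 5 held 1 array far from the rest by Dixon's test at the 95% level, which chance alone does in about 1 group in 20. GOT2 in the low group had control replicate 4 at 9.07, and the other 5 arrays ran from 9.29 to 9.38. The dimmer BAMBI probe set in the low group had sialyllactose replicate 6 at 2.53, above the others at 2.27 to 2.35. STAT3, a signal transducer on the glial stress list, had control replicate 3 at 5.72 in the high group, where the others ran from 5.06 to 5.19. RDH14 in the low group had control replicate 9 at 4.54 and the others from 4.80 to 4.94. OCA2 in the low group had control replicate 6 at 1.92 and the others from 1.78 to 1.80.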

How the results depend on the processing

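Of the 14 called probe sets (12 higher, 2 lower), each kept its sign in every alternative in which it was tested, but their number depended on how the groups were drawn. With the 4 highest against the 4 lowest arrays 5 were called (4 higher, 1 lower), with all arrays split 9 and 9 there were 6 (6 higher, 0 lower), and with the slope on the ALDH1A1 level over 18 arrays 8 (7 higher, 1 lower). With TTR as a covariate there were 2 (2 higher, 0 lower). Leaving out 1 array gave 7 to 13 calls, 7 to 11 higher and 0 to 3 lower. Lower calls numbered 4 with 50% of probe sets left out as dim, 5 with array quality weights, 4 with an intensity trend and robust prior, 4 with an interferon score as covariate and 6 at an adjusted p under 0.1. The exact rank-sum test called 0 (0 higher, 0 lower), with a smallest adjusted p of 0.404. Its smallest unadjusted p was 0.00216, the lowest that 6 against 6 arrays allow, and 88 probe sets stood there. With so few at that floor, none could pass after adjustment over all tested probe sets. Its 0 calls therefore decide nothing about the 14. By this test 1083 probe sets had an unadjusted p under 0.05, among them all 14, which were called on the same arrays. The labels do not say whether a shared replicate number links piglets of the 2 diets. Over the 9 pairs of equal number, correlations of deviations ran from -0.113 to 0.164 with a median of 0.0703. Of the 9 controls, 3 were closest to the sialyllactose array of their own number. With the replicate number as a replicate block 14 probe sets were called. For ALDH1A1 between the diets the difference ran from -0.00306 to 0.583 without 1 array, and turned sign without control replicate 8. Without detection calls, how far dim probe sets lie above background is unknown. Among these are the probe sets of BMP4, CYP26A1, BMP7, RARB, RARRES1, BCO2, PDE6C, OPRM1, PALMD and ACADL, and the unnamed one of smallest p.

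Signs turned only in uncalled genes with small differences. With 4 against 4 arrays BMPR1B was at 0.0247, SLC45A2 at 0.0159, SERPINF1 at 0.0772, RDH14 at -0.0750 and TYR at 0.0723. With 9 against 9 SERPINF1 was at 0.103 and TYR at 0.0751, and with the slope RDH14 was at -0.000825. With TTR as a covariate RDH11 was at 0.0236, RARRES2 at 0.170, SLC45A2 at 0.0487, SERPINF1 at 0.518, RDH14 at -0.0396 and TYR at 0.0599. With quality weights RDH14 was at -0.00284 and OCA2 at -0.0131, and OCA2 was at -0.00259 after quantile normalization and at -0.0337 without diet. Without 1 array, the range was -0.102 to 0.0438 for BCO2, -0.120 to 0.0712 for OCA2, -0.0224 to 0.0631 for PDE6C, -0.0327 to 0.0596 for RDH14, -0.00582 to 0.108 for RXRA, -0.301 to 0.180 for SERPINF1, -0.148 to 0.0250 for SLC45A2 and -0.108 to 0.0450 for TYR.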
